A study of Mus musculus with 14 samples.

Results

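The genes that make and package the inhibitory transmitter GABA, and that hold its receptors at the synapse, were followed in cerebellum of mice with and without Astn2. They were taken from a list of gene symbols that names them by function, and the list was written with earlier results of these data known: Gad1, Gad2, Slc32a1, Gphn and Lhfpl4, 5 of the 24100 genes in the count table. All 5 passed the filter on low counts in every comparison. RNA was sequenced from cerebella at postnatal day 21, and the design asks which transcripts change in Purkinje cells that lack ASTN2. Every mouse, WT controls included, carried a bacTRAP transgene in which the Purkinje cell promoter Pcp2 drives an EGFP-tagged ribosomal protein L10a. Translating ribosome affinity purification (TRAP) collects tagged ribosomes with antibodies against GFP, while input is a share of the same kind of homogenate kept before the purification and stands for whole cerebellum. The groups were input from Astn2 WT mice (4 libraries, 1 female and 3 male), input from Astn2 KO littermates (3 libraries, 2 female and 1 male), TRAP from WT (3 libraries, 1 female and 2 male) and TRAP from KO (4 libraries, 2 female and 2 male). The labels do not say which libraries came from the same animal, so p-values measure the spread between these libraries. Since each library holds RNA from many cells, fewer cells of a type and less RNA per cell cannot be told apart.

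GABA is made from glutamate by glutamate decarboxylase, which exists in 2 forms encoded by Gad1 and Gad2, and is loaded into synaptic vesicles by the vesicular transporter encoded by Slc32a1. Across the synapse, gephyrin, encoded by Gphn, forms the lattice that holds inhibitory receptors, and it also catalyses the last steps of molybdenum cofactor synthesis in cells of all kinds. Lhfpl4 is a small membrane protein that ties GABA receptors to the adhesion protein Nlgn2 and so to the gephyrin lattice. In the cerebellum, Purkinje cells release GABA as the output of the cortex and receive it from molecular layer interneurons, and Golgi cells release GABA onto granule cells.

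The genes lie at separate loci of the GRCm38 assembly. Gad1 (Entrez 14415) spans chr2:70553072-70602014 on the plus strand, with 17 exons in its longest coding transcript, and Gad2 (Entrez 14417) spans chr2:22622205-22693874 on the plus strand, with 16 exons. Slc32a1 (Entrez 22348) is compact, with 2 exons at chr2:158610767-158615748 on the plus strand. Gphn (Entrez 268566) is spread over 458.4 kb at chr12:78226379-78684772 on the plus strand, with 24 exons, and Lhfpl4 (Entrez 269788) has 4 exons at chr6:113168090-113195384 on the minus strand. Gad1 overlaps the antisense gene Gad1os, and whether reads were counted by strand is not given in the sources used here. Gad1os had 7 to 32 counts in a library, against at least 9083 for Gad1.

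The promoters of the synthesis and packaging genes are shown, since the enzymes of Gad1 and Gad2 make GABA and the transporter of Slc32a1 loads it. Each run is the 250 bases before the RefSeq start site in GRCm38.p6, read 5′ to 3′ on the gene's strand, with capitals marking matches to CACCTG (an E-box), TATAAA or GGGCGG (a GC box) on either strand.
Gad1, chr2:70561879-70562128, plus strand: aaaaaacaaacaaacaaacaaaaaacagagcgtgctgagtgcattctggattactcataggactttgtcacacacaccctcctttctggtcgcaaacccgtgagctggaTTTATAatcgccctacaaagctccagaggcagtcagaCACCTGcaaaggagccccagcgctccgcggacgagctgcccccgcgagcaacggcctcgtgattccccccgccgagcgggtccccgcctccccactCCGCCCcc
Gad2, chr2:22622077-22622326, plus strand: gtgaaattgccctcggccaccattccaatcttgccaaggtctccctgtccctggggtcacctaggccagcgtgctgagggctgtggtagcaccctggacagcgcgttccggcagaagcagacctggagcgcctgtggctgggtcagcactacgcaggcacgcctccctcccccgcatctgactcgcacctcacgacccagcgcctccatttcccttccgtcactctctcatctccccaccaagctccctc
Slc32a1, chr2:158610508-158610757, plus strand: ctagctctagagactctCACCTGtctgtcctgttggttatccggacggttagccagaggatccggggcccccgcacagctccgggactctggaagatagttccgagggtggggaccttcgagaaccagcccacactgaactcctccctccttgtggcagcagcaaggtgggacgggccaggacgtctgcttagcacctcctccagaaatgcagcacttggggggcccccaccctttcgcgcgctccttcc
The RefSeq starts used for Gad1, Gad2 and Gphn lie inside the GENCODE spans given above. The Gad1 and Gphn windows therefore lie wholly, and the Gad2 window in part, within the annotated gene. Gad1 held 1 CACCTG, 1 TATAAA (printed as its reverse complement) and 1 GGGCGG (likewise), Slc32a1 held 1 CACCTG, and Gad2 held none of these motifs. Among 32841 promoter windows of the same length, 17.2% held CACCTG, 12.4% TATAAA and 32.7% GGGCGG, so matches of each kind are common. The GC content was 58.0% for Gad1, 64.0% for Gad2 and 62.4% for Slc32a1, against a median of 52.4% over all windows. The windows of Gphn and Lhfpl4 were richer still, at 77.2% and 66.4%, with 34 and 17 CpG sites where the median window had 6, and each held 1 GC box.

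Library totals ran from 18.8 to 54.2 M counts (M, 1e6), and between 901 and 27559 counts stood behind each value of the 5 genes. Astn2 was at 94.5 ± 6.76 CPM (counts per 1e6 counts with TMM factors; SD, n = 4) in input WT and 0.877 ± 0.129 CPM (SD, n = 3) in input KO, and at 130 ± 14.9 (SD, n = 3) and 1.52 ± 0.447 CPM (SD, n = 4) in TRAP WT and TRAP KO. The summed level of 10 Purkinje cell markers was 7062 to 8468 CPM in the input libraries and 80950 to 99990 CPM in the TRAP libraries, matching the cell type that the TRAP labels name. The summed level of 10 inhibitory interneuron markers was 537.4 to 572.5 CPM in input and 105.3 to 198.0 CPM in TRAP. No marker of any list averaged 0 in a group, so low levels of the other cells' markers were measured in TRAP. TRAP WT replicate 3 stood apart: of 7435 genes with a mean of at least 20 CPM in TRAP, 497 were over 1.5 times the highest of the other 6 TRAP libraries, where each other TRAP library had 1 to 6 such genes. A further 670 lay below the lowest of the other 6 by more than 1.5 times, where each other TRAP library had 0 to 40 such genes. For the 5 genes, fold changes between fractions in WT, between genotypes in TRAP and of the interaction are given with and without it. For the wider lists the counts of calls between fractions are given both ways. Fold changes of single listed genes are given with it only.

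**Figure D1:**
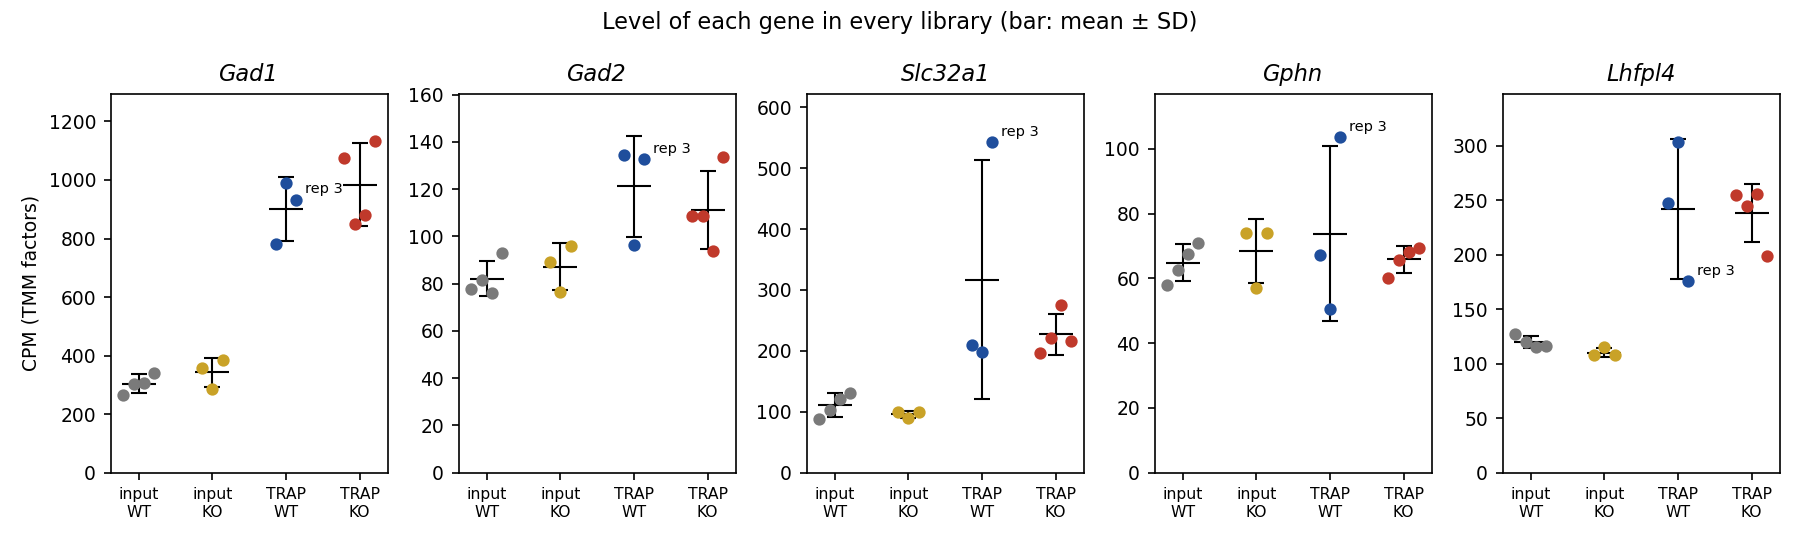
Each panel plots 1 gene; the y axis is its level in CPM with TMM factors, points are libraries, and bars are the mean ± SD of each group. Gad1, Slc32a1 and Lhfpl4 sit higher in every TRAP library than in every input library, Gphn overlaps throughout, and the highest Slc32a1 point, at 543.1 CPM, is TRAP WT replicate 3.

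Levels were first compared between the genes, per kb of the longest coding transcript, which assumes that this transcript is the one in use. Gad1 had the highest level per kb in each group, at 90.8 ± 9.24 CPM per kb in input WT (SD, n = 4) and 268.5 ± 32.4 CPM per kb in TRAP WT (SD, n = 3). Slc32a1 followed with 39.7 ± 6.85 CPM per kb (SD, n = 4) in input WT and 113 ± 70.1 CPM per kb (SD, n = 3) in TRAP WT. Lhfpl4 was next, with 25.2 ± 1.17 CPM per kb (SD, n = 4) and 50.9 ± 13.4 CPM per kb (SD, n = 3). In TRAP WT, where the SD of Slc32a1 was largest, its lowest library was at 70.7 CPM per kb and the highest library of Lhfpl4 at 63.7 CPM per kb, so these genes did not overlap.

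Gad2 and Gphn had the lowest levels per kb. In input WT Gphn was at 18.1 ± 1.60 CPM per kb (SD, n = 4) and Gad2 at 14.3 ± 1.30 CPM per kb (SD, n = 4), a difference larger than either SD. In TRAP WT they stood at 20.7 ± 7.58 and 21.1 ± 3.71 CPM per kb (SD, n = 3), and in TRAP KO at 18.4 ± 1.14 and 19.3 ± 2.87 CPM per kb (SD, n = 4), so their order was not resolved in the purified fraction. KO kept the same first 3 genes, with Gad1 at 102 ± 15.0 CPM per kb in input KO (SD, n = 3) and 293 ± 42.3 CPM per kb in TRAP KO (SD, n = 4).

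The purified fraction was then compared with whole cerebellum. Relative to the typical gene, transcripts for GABA synthesis by Gad1, vesicular loading by Slc32a1 and receptor anchoring by Lhfpl4 were higher in TRAP in both genotypes. Gad2 had a smaller fold change, was called in WT only and turned below 0 when libraries were scaled by their totals, and Gphn was called higher in neither genotype. In WT, 4 of 5 genes were called higher by edgeR's quasi-likelihood test, against 37.0% of the 16042 genes tested; in KO, 3 of 5 were, against 36.3%. Every TRAP library lay above every input library for the same 4 genes in WT, against 34.4% of all genes, and for 3 in KO, against 37.8%. The median log2 fold change of the 5 genes was 1.01 in WT and 1.13 in KO, where the median over all genes was -0.09 and -0.11.

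Gad1 encodes the decarboxylase form found throughout the cell. Its level in input WT was 265.5, 304.8, 307.5 and 341.2 CPM, and in TRAP WT 779.8, 990.3 and 932.8 CPM. In KO it was 358.5, 287.0 and 384.1 CPM in input and 1075, 848.4, 878.8 and 1134 CPM in TRAP. The lowest TRAP library was over 2 times the highest input library in either genotype. The log2 fold change by edgeR's quasi-likelihood test was 1.58 ± 0.13 in WT (SE; adjusted p 7.78e-08) and 1.49 ± 0.13 in KO (SE; adjusted p 2.42e-07). Without TRAP WT replicate 3 they were 1.56 and 1.47.

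Gad2 encodes the form that is tethered to synaptic vesicles. It was at 77.9, 81.4, 76.2 and 92.8 CPM in input WT and at 134, 96.6 and 133 CPM in TRAP WT. In KO, input stood at 89.2, 76.5 and 95.9 CPM and TRAP at 108.5, 108.6, 93.8 and 133.5 CPM. The WT groups did not overlap but came close, and the KO groups overlapped, since 1 TRAP library lay below the highest input library. The log2 fold change in WT was 0.57 ± 0.15 (SE; edgeR, adjusted p 0.00318). In KO it was 0.34 ± 0.15 (SE; edgeR, adjusted p 0.050012), which missed the threshold of 0.05 narrowly. Without TRAP WT replicate 3, a library of the same fit, the WT value was 0.47 (adjusted p 0.0168) and the KO value 0.32 (adjusted p 0.0463), so that edgeR's test then called both.

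Slc32a1 encodes the vesicular GABA and glycine transporter. In WT it was at 88.5, 103, 121 and 132 CPM in input and at 209.5, 197.7 and 543.1 CPM in TRAP. In KO it was at 100.2, 89.6 and 99.1 CPM in input and at 197, 221.5, 275 and 216 CPM in TRAP. All TRAP libraries were higher than all input libraries, and 1 of them, TRAP WT replicate 3, was 1.98 times the highest of the other 6. The log2 fold change in WT was 1.52 ± 0.26 (SE; edgeR, adjusted p 1.02e-04). Without that library it was 0.90 ± 0.15 (SE; edgeR, adjusted p 7.90e-05). In KO it was 1.17 ± 0.27 (SE; edgeR, adjusted p 0.00130).

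Gphn encodes the scaffold itself. Its input levels were 58.0, 62.7, 67.6 and 71.0 CPM in WT and 74.1, 57.0 and 74.2 CPM in KO. The TRAP levels were 67.3, 50.7 and 104 CPM in WT and 60.2, 65.6, 68.2 and 69.4 CPM in KO. The groups overlapped in both genotypes, and the lowest and the highest of the 14 values were both TRAP WT libraries. The log2 fold change in WT was 0.20 ± 0.18 (SE; edgeR, adjusted p 0.311). Without TRAP WT replicate 3 it was -0.14 ± 0.14 (SE; edgeR, adjusted p 0.381), and without TRAP WT replicate 2 it was 0.39 and passed (edgeR, adjusted p 0.0185). In KO it was -0.08 ± 0.18 (SE; edgeR, adjusted p 0.685).

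Lhfpl4, the receptor partner, had narrow input groups, with 127.6, 120.3, 115.3 and 116.4 CPM in WT and 107.6, 115.5 and 107.7 CPM in KO. In TRAP it was at 247.3, 303.5 and 175.7 CPM in WT and at 254.9, 244.3, 255.5 and 199.2 CPM in KO. All TRAP libraries lay above all input libraries, and the lowest TRAP value came from WT replicate 3, where Slc32a1 and Gphn had their highest. The log2 fold change in WT was 1.01 ± 0.15 (SE; edgeR, adjusted p 3.38e-05), and 1.17 ± 0.12 without that library (SE; edgeR, adjusted p 8.28e-07). In KO it was 1.13 ± 0.16 (SE; edgeR, adjusted p 1.78e-05).

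**Figure D2:**
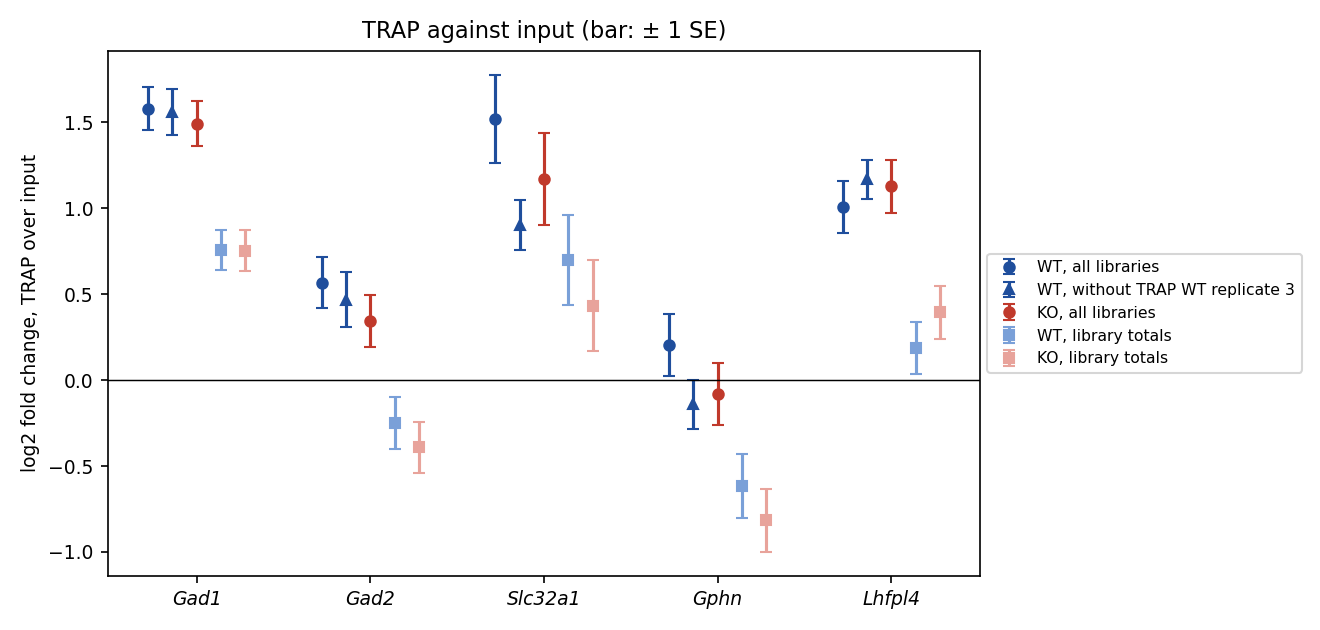
The y axis is the log2 fold change of TRAP over input for each gene, with bars of 1 SE, in WT and KO and under the other settings in the legend. Gad1, Slc32a1 and Lhfpl4 stay above 0 in each setting shown, Gad2 lies below 0 with library totals, and Gphn lies above 0 only in WT with all libraries.

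These directions are relative to TMM scaling, which centres the typical gene near 0. With plain library totals the median log2 fold change over all genes moved from -0.09 to -0.91 in WT, and the split of called genes from 5937 higher and 6181 lower to 3135 higher and 9801 lower. On that scale edgeR's test still called Gad1 higher, at 0.76 in WT and 0.75 in KO. Slc32a1 was called in WT, at 0.70, and not in KO, at 0.43 (adjusted p 0.148). Lhfpl4 was called in KO, at 0.39, and not in WT, at 0.18 (adjusted p 0.272). Gad2 stood at -0.25 in WT, which was not called (adjusted p 0.136, edgeR), and at -0.39 in KO, called lower (adjusted p 0.0261, edgeR). Gphn was called lower in both genotypes by edgeR's test, at -0.61 in WT (adjusted p 0.00772) and -0.82 in KO (adjusted p 0.00101). Ranked among the 16042 genes under TMM scaling, the WT fold change of Gad1 exceeded that of 86.4% of genes, Slc32a1 85.5%, Lhfpl4 76.4%, Gad2 66.6% and Gphn 57.7%. In KO the same shares were 86.8%, 81.0%, 80.2%, 61.9% and 50.8%.

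All 10 Purkinje cell markers were called higher in TRAP WT, with a median log2 fold change of 3.66, and all 10 interneuron markers lower, with a median of -1.89; the KO medians were 3.47 and -1.71. The 5 genes lay between these medians in both genotypes. How much of their input level came from interneurons was not tested.

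The ratio of the decarboxylase transcripts within a library does not depend on scaling. In input the count of Gad1 was 3.41, 3.75, 4.03 and 3.68 times that of Gad2 in WT and 4.02, 3.75 and 4.00 times in KO. In TRAP it was 5.81, 10.3 and 7.03 times in WT and 9.90, 7.82, 9.37 and 8.49 times in KO. Each TRAP library had a higher ratio than each input library. The log2 difference was 1.01 in WT and 1.18 in KO, each with an exact two-sided permutation p of 0.0286, the smallest that the 35 splits of 3 against 4 libraries allow, and 0.0762 after adjustment over 8 ratio tests. Without TRAP WT replicate 3 the difference in WT was 1.06. Between genotypes the ratio differed by 0.24 in TRAP and 0.08 in input in log2 units (exact permutation p 0.343 and 0.257).

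Vesicular transporter per decarboxylase was less even. The ratio of Slc32a1 to Gad1 counts was 0.333, 0.338, 0.395 and 0.386 in input WT and 0.280, 0.312 and 0.258 in input KO. In TRAP it was 0.269, 0.200 and 0.582 in WT and 0.183, 0.261, 0.312 and 0.190 in KO. The input groups did not overlap, with KO lower by a log2 difference of -0.36 and an exact two-sided permutation p of 0.0286 (0.0762 after adjustment over the 8 tests). That test took no account of sex, and the sexes were unevenly split between the input groups. The TRAP groups overlapped, with a difference of -0.45 and an exact permutation p of 0.400, and 1 WT library, replicate 3, was above all others; without it the difference was -0.0048. Between fractions the log2 difference was -0.20 in WT and -0.29 in KO, with exact permutation p of 0.686 and 0.343, and the WT value was -0.64 without that library.

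**Figure D3:**
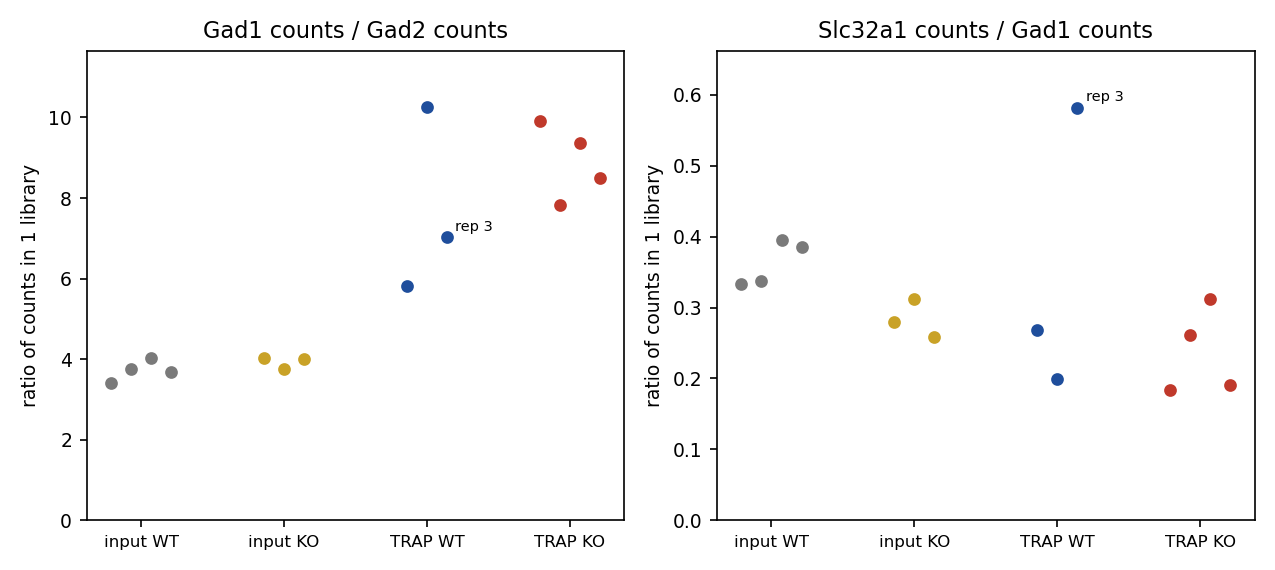
The y axes are the ratio of counts of 2 genes within each library, Gad1 to Gad2 on one panel and Slc32a1 to Gad1 on the other, with 1 point a library in each of the 4 groups. All TRAP points of Gad1 to Gad2 lie at 5.81 or above and all input points at 4.03 or below, while for Slc32a1 to Gad1 the input KO points lie below the input WT points.

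The effect of Astn2 loss was compared next, in each fraction. In TRAP, 0 of 5 genes passed an adjusted p of 0.05 by edgeR's test, where 0.00707% of 14145 genes passed, and 0 had an unadjusted p under 0.05, where 212 of all genes did. In input, 0 of 5 passed, where 0.0188% of 15997 genes passed, and 2 had an unadjusted p under 0.05, where 2198 of all genes did. The DESeq2 Wald test and limma with quality weights also called 0 of the 5 in each fraction. None of the 5 separated KO from WT without overlap in TRAP, where 4.49% of all genes did, or in input, where 10.3% did.

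Input had the smaller errors. Gad1 had a log2 difference of 0.26 ± 0.10 between KO and WT (SE; edgeR, p 0.0280, adjusted p 0.312). Lhfpl4 had -0.17 ± 0.06 (SE; edgeR, p 0.0144, adjusted p 0.266). Gad2 was at 0.13 ± 0.09, Gphn at 0.15 ± 0.11 and Slc32a1 at -0.11 ± 0.13 (SE), and edgeR's adjusted p for these was 0.554, 0.572 and 0.746. The summed interneuron markers overlapped between the genotypes, at 544.0 to 570.6 CPM in WT and 537.4 to 572.5 CPM in KO, as did the summed Purkinje markers, at 7062 to 7626 and 7322 to 8468 CPM.

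In TRAP the errors were larger, and each difference was about as large as its SE or smaller. Gad1 had a log2 difference of 0.17 ± 0.18, Gad2 of -0.12 ± 0.19, Gphn of -0.13 ± 0.23 and Lhfpl4 of -0.03 ± 0.21 (SE). Slc32a1 had -0.36 ± 0.33 (SE), and 0.16 ± 0.15 (SE) without TRAP WT replicate 3, so that 1 library set its sign. By edgeR's test the adjusted p was 1.00 for each of the 5 genes. Without that library Gad1 stood at 0.17, Gad2 at -0.04, Gphn at 0.17 and Lhfpl4 at -0.20, where edgeR's adjusted p was 0.940 or more. A p that misses the threshold does not show that the genotypes have equal levels: the SEs of 0.18 to 0.33 on the log2 scale set what could be resolved here.

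Whether the genotype difference itself varied between fractions was tested as an interaction in all 14 libraries. It passed for 0 of the 5 genes and for 0.00% of all genes, with 0 of the 5 and 430 of 16042 genes at an unadjusted p under 0.05 in edgeR's test. The DESeq2 Wald test called 1 gene, none of the 5. The log2 interaction was -0.09 ± 0.18 for Gad1, -0.22 ± 0.21 for Gad2, -0.35 ± 0.36 for Slc32a1, -0.29 ± 0.25 for Gphn and 0.12 ± 0.21 for Lhfpl4 (SE), and edgeR's adjusted p was 0.999 for each. Without TRAP WT replicate 3 the sign turned for Slc32a1 (0.28), Gphn (0.05) and Lhfpl4 (-0.07), and Gad1 and Gad2 stood at -0.09 and -0.14. The fraction comparisons in WT and KO and the genotype comparisons share libraries, so their values are given side by side only.

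**Figure D4:**
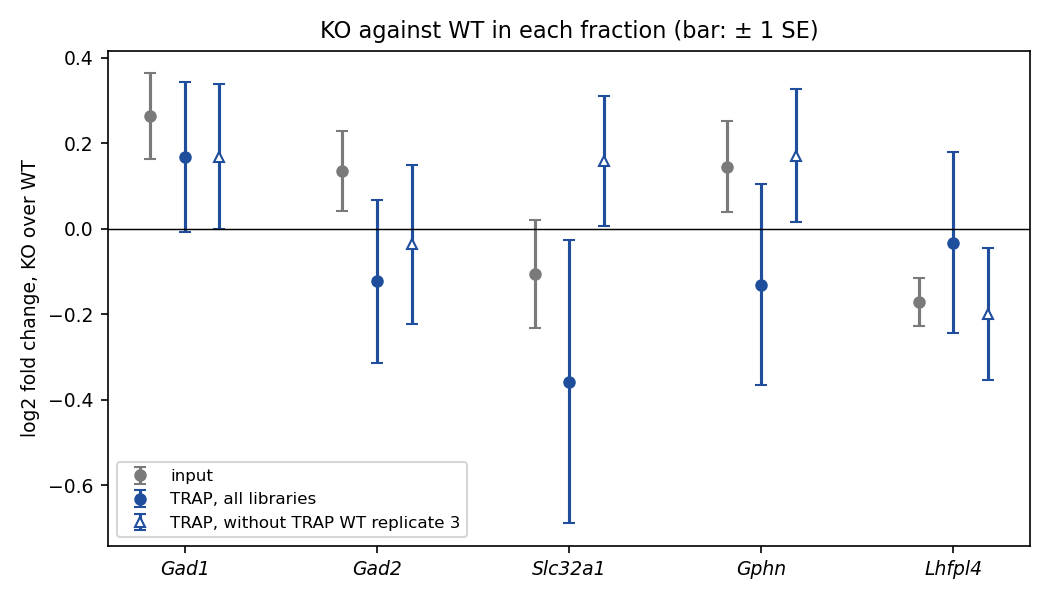
The y axis is the log2 fold change of KO over WT for each gene, with bars of 1 SE, in input, in TRAP, and in TRAP without WT replicate 3. No value passed the adjusted p of 0.05, and Slc32a1 and Gphn in TRAP lie on opposite sides of 0 with and without that library.

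The wider pathway was described with 8 lists of 55 genes, of which 52 could be tested between fractions. In WT 22 of the 52 were called higher in the purified fraction and 19 lower, where 37.0% and 38.5% of all genes were. KO had 22 and 20 of 52, where 36.3% and 39.6% of all genes were. With library totals the splits were 13 higher and 26 lower in WT and 11 and 30 in KO. Genes that break GABA down were higher under TMM scaling, although 3 of the 4 turned below 0 with library totals: all 4 were called in WT, with a median log2 fold change of 0.63, and 3 in KO, with a median of 0.44. Without input KO replicate 3 the KO count was 1. Akr7a5, which reduces succinic semialdehyde, had 1.41 ± 0.16 (SE), at 23.0 CPM in input WT and 61.6 CPM in TRAP WT. Adhfe1 had 0.65 ± 0.19, Aldh5a1, which oxidises succinic semialdehyde, 0.51 ± 0.13, and the GABA transaminase Abat 0.61 ± 0.16 (SE), at 230.7 and 350.1 CPM. With library totals Abat, Aldh5a1 and Adhfe1 turned to -0.21, -0.31 and -0.17.

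Genes that take up GABA or supply glutamate were mostly lower in TRAP. Of the plasma membrane transporters listed, Slc6a11, known from astroglia, had -2.46 ± 0.31 (SE), falling from 24.1 to 4.46 CPM, Slc6a12 had -2.40 ± 0.34 (SE), and Slc6a13 rose, with 1.69 ± 0.27 (SE), from 3.57 to 11.4 CPM; KO gave the same 1 higher and 2 lower, and with library totals the call of Slc6a13 in KO was lost. All 5 genes of glutamine and glutamate supply were lower in both genotypes, with medians of -0.79 and -0.82. Slc38a3, a glutamine transporter known from astroglia, had -2.48 ± 0.28 (SE), and glutamine synthetase, Glul, -1.07 ± 0.25 (SE), from 391.8 to 188.6 CPM. The astroglia markers fell alongside, 7 of 7 in each genotype, with summed levels of 1024 to 1462 CPM in input and 268.2 to 528.2 CPM in TRAP. Their part in these values was not tested.

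Related decarboxylases and their cofactor enzymes were split, with 3 higher and 2 lower of 6 in WT and 3 and 3 in KO. Histidine decarboxylase, Hdc, had the largest rise of the list, 3.01 ± 0.14 (SE), from 6.69 to 54.5 CPM. Pdxk, a kinase of vitamin B6 metabolism, had -0.42 ± 0.10 (SE), and Ddc, the aromatic amino acid decarboxylase, had -1.30 ± 0.25 (SE). Of the other vesicular transmitter transporters, 2 of 5 tested were lower in each genotype and none higher: Slc17a7, the granule cell glutamate transporter, with -1.84 ± 0.23 (SE), and Slc17a6, with -1.64 ± 0.22 (SE). The shares over all genes were 37.0% higher and 38.5% lower in WT, and 36.3% and 39.6% in KO, so 2 of 5 lower is close to the share of all genes. With library totals 3 of the 5 were lower in WT and 5 in KO.

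The list of gephyrin partners and other inhibitory postsynapse genes had 10 higher and 5 lower of 17 in each genotype. Of all genes, 37.0% were called higher and 38.5% lower in WT, and 36.3% and 39.6% in KO. The list medians were 1.08 in WT and 0.82 in KO. Insyn1, a gephyrin-binding protein of inhibitory synapses, had 3.18 ± 0.14 (SE), from 200.7 to 1817 CPM. The lowest were Shisa7, a receptor auxiliary protein, with -2.78 ± 0.22 (SE), and Mdga1, which binds neuroligins, with -2.27 ± 0.42 (SE). With library totals the split became 7 higher and 7 lower in WT and 5 and 7 in KO.

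In the molybdenum cofactor pathway, gephyrin's other role, 2 of 8 tested genes were higher and 1 lower in WT, and 3 and 1 in KO. Mocs2, which makes the intermediate that gephyrin works on, had 1.72 ± 0.16 (SE), from 51.5 to 169.8 CPM, Mocs3 had 1.06 ± 0.22 (SE), and Aox1, an enzyme that uses the cofactor, -1.81 ± 0.35 (SE). Of the other Lhfpl genes, 2 were higher and 2 lower of 4 tested in each genotype: Lhfpl3 with 1.02 ± 0.11, Lhfpl5 with 0.67 ± 0.19, Lhfpl2 with -2.12 ± 0.26 and Lhfp, also called Lhfpl6, with -0.64 ± 0.15 (SE). For comparison, 37.0% of all genes were called higher and 38.5% lower in WT, and 36.3% and 39.6% in KO. With library totals Mocs3, Lhfpl3 and Lhfpl5 were no longer called in WT, and Lhfpl5 turned to -0.15. The split of the molybdenum cofactor pathway then became 1 higher and 3 lower in WT and 1 and 4 in KO. That of the other Lhfpl genes became 0 and 2 in WT and 1 and 2 in KO.

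Without TRAP WT replicate 3, the WT calls came to 3 of 4 higher for GABA breakdown, with a median of 0.37. They came to 10 higher and 6 lower for gephyrin partners and inhibitory postsynapse genes, with a median of 0.73. For the molybdenum cofactor pathway they were 3 higher and 1 lower. The KO calls came to 4, 10 and 6, and 4 and 1 for the same lists. The other 5 lists kept their counts in both directions.

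None of the listed genes passed between KO and WT. In edgeR's test 0 of 49 were called in TRAP, with 0 at an unadjusted p under 0.05, and 0 of 52 in input, with 5 at an unadjusted p under 0.05, where 2198 of 15997 genes were. The interaction called 0 of 52, with 2 at an unadjusted p under 0.05.

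**Figure D5:**
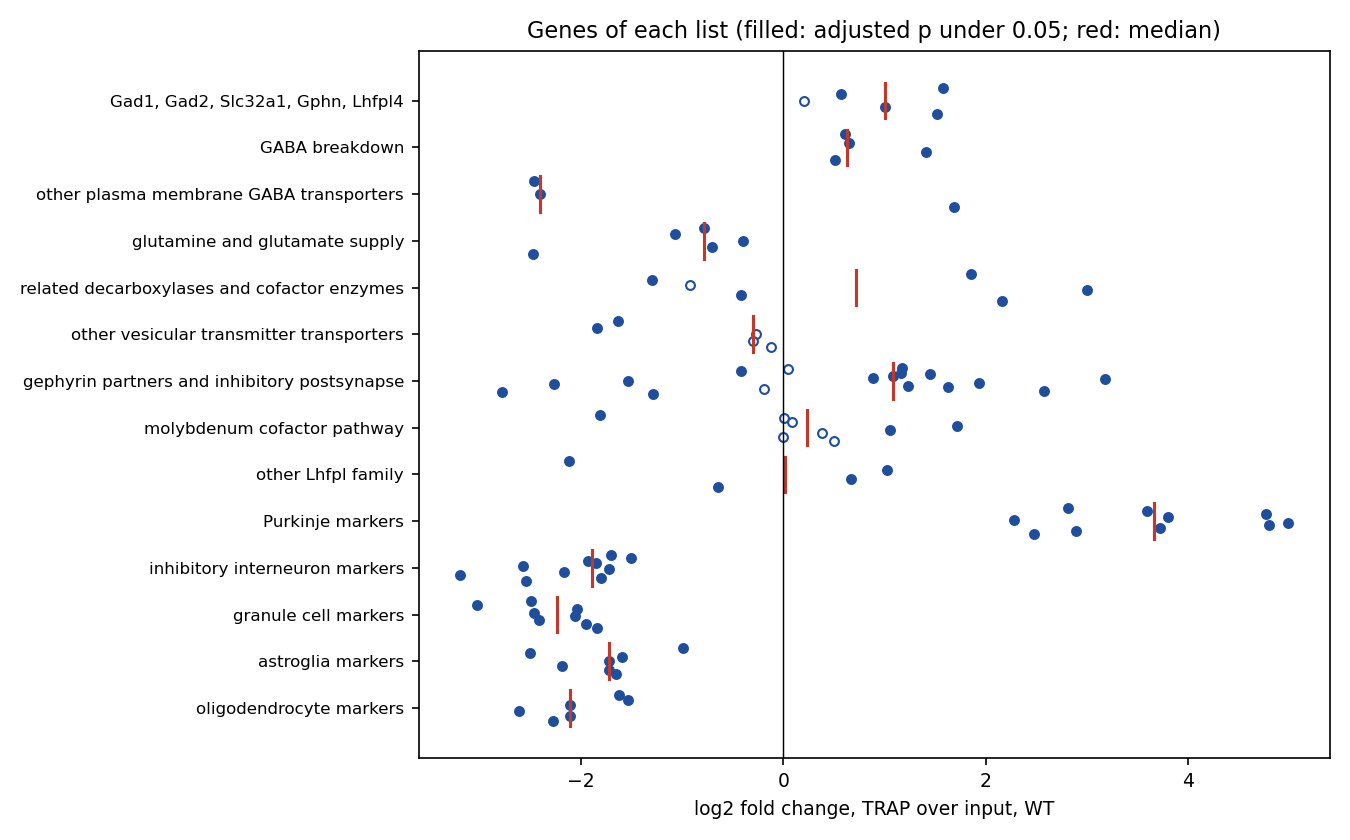
The x axis is the log2 fold change of TRAP over input in WT; each row is a list, each point a gene, filled where the adjusted p was under 0.05, and the red mark is the median. The Purkinje markers lie on the right with a median of 3.66 and the interneuron markers on the left with a median of -1.89. The gephyrin partners and inhibitory postsynapse genes lie on both sides.

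For each of the 5 genes, the genes whose levels ran most alike over the 14 libraries were found among 5946 genes, by the Pearson correlation of log2(CPM + 1). The libraries share the split between fractions, so these values describe the pattern and carry no test. Gad1 ran closely with Ankmy2 (r = 0.996) and Got1 (0.994). Lhfpl4 was most like Mgat1 (0.995), Fkbp2 (0.995) and D8Ertd738e (0.993), and Slc32a1 most like Rnf13, Eif3g and Srpr (0.988 each). Gad2 was most like Klhl18 (0.960), Cyria (0.950) and Ap3m1 (0.937). Gphn was most like Xpnpep1 (0.962), Prpf19 (0.953) and Arhgef18 (0.936), and these fell to 0.913, 0.923 and 0.841 over the 13 libraries left without TRAP WT replicate 3.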

How the data were processed

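Gene counts were analysed for 14 RNA-seq libraries of mouse cerebellum, taken as raw read counts per Entrez gene as deposited by the authors, with no normalization. Salmon 0.8.2 and the mm10 build are named per the submitters' processing notes; the role of Salmon, whose estimates need not be whole while the deposited counts are, and the annotation and strand setting are not given in the sources used here. RefSeq (GRCm38.p6) named 24045 of 24100 genes and gave the promoter sequences; GENCODE M21 gave gene spans and transcript lengths.

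Groups and sex came from the labels. Tests used edgeR 4.0.16 (R 4.3.3), quasi-likelihood, TMM factors, filterByExpr, two-sided, with Benjamini-Hochberg adjustment over all genes tested and a threshold of 0.05. Fraction contrasts and the interaction used all 14 libraries with group means and sex, and genotype used the 7 libraries of a fraction with sex. SEs were derived from the fold change and its F statistic (size of the log2 value over the root of F). Ratios of counts within a library were compared by exact permutation, with no sex term. The procedure was also run on simulated counts with known changes, the same spread for every gene and no library standing apart. Those settings are simpler than these data, so that run does not show how the tests behave here.

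Alternatives were DESeq2 size factors, library totals, no filter, a filter at 50 counts on average, no sex term, quality weights (limma 3.58.1), a Wald test (DESeq2 1.42.0), all 14 libraries in one genotype fit, a replicate block, and each library left out. The genes named are the 5 genes, Astn2, per list up to 2 highest and 2 lowest log2 fold changes among genes past the threshold in WT TRAP against input, and the 3 most correlated genes for each of the 5. A few genes that this rule picks are not reported here. The genes and lists were chosen with earlier results of these data known. Reads carry no molecular identifiers, so counts are of reads and not of molecules. The SEs and SDs given include the spread between libraries as well as counting.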

Additional observations from a re-analysis of the deposited data

How the results depend on the processing

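The calls of the 5 genes rest on 3 or 4 libraries a group and on TMM scaling. Of these calls, leaving out TRAP WT replicate 3 changed that of Gad2 in KO against input, which then passed. Against input, 3 to 5 of the 5 genes passed in WT and 3 to 4 in KO over 22 alternatives, in either direction; with library totals they were 2 higher and 1 lower in WT and 2 higher and 2 lower in KO, and in both genotype contrasts none passed in any of 16. The cause of the changes below was not tested. With library totals the log2 fold change of TRAP over input turned to -0.25 (Gad2, WT), -0.39 (Gad2, KO) and -0.61 (Gphn, WT), and Gphn in WT was at -0.00604 under a filter of 50 counts on average. Between KO and WT in TRAP, quality weights gave 0.0693 for Slc32a1 and 0.0086 for Gphn, and Lhfpl4 was 0.023 with library totals; the interaction of Slc32a1 was 0.12 with quality weights. Leaving out each library in turn gave ranges that crossed 0, by TRAP WT replicate 3 unless another is named. For TRAP against input these were -0.14 to 0.39 for Gphn in WT and -0.17 to 0.016 in KO (above 0 without input KO replicate 1). For KO against WT in TRAP they were -0.29 to 0.015 for Gad2 (above 0 without TRAP WT replicate 1), -0.61 to 0.16 for Slc32a1, -0.35 to 0.17 for Gphn and -0.20 to 0.19 for Lhfpl4 (above 0 without TRAP KO replicate 4 or TRAP WT replicate 2), and in input -0.29 to 0.12 for Slc32a1 (above 0 without input KO replicate 3). For the interaction they were -0.60 to 0.28 for Slc32a1, -0.50 to 0.054 for Gphn and -0.067 to 0.41 for Lhfpl4. For the ratio of Slc32a1 to Gad1 between fractions in WT they were -0.64 to 0.13 (above 0 without TRAP WT replicate 2). Gad2 in KO passed as lower with library totals, and as higher without a sex term, with quality weights, and without TRAP KO replicate 3, TRAP WT replicate 2 or TRAP WT replicate 3.

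The count of all genes past the threshold for KO against WT in TRAP, 1 as reported, was 4 with quality weights, 3 by DESeq2's Wald test, 2 with all 14 libraries in one fit and 1 to 2 with a library left out (2 without each WT library in turn). In input, 3 as reported, it was 292 by the Wald test, 23 with no filter, 8 with quality weights, 5 with size factors from DESeq2, 1 with the replicate block and 1 to 158 with a library left out. The 158 were found without input KO replicate 2, and each other omission gave 1 or 2. The interaction called 1 with the Wald test. Scaled by library totals, Gad1 averaged 400.0 CPM in input WT, 446 in input KO, 669 in TRAP WT and 765 in TRAP KO; Gad2 107.8, 113.4, 90.5 and 86.5 CPM. Slc32a1 averaged 146 CPM in input WT, 125 in input KO and 177.5 in TRAP KO, Gphn 85.1, 89.0 and 51.4 CPM, and Lhfpl4 157.5, 144 and 186 CPM.

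The labels share replicate numbers but do not tie them to animals, so the main fits did not pair libraries. Same-numbered TRAP and input libraries had deviations correlated at 0.292, 0.243 and 0.098 in WT and 0.225, 0.225 and -0.125 in KO. Of these, 3 of 3 WT and 2 of 3 KO libraries correlated best with their own number. Same-numbered libraries of a genotype also had the same sex. If the numbers do mark shared animals, the main fraction tests and ratio tests treat libraries of the same animal as separate. Between fractions, the replicate block paired libraries of a genotype by number, with no sex term and only numbers found in both fractions. On those pairs 4 of the 5 genes passed in WT and 3 in KO, as without the block. Gad2 in KO then stood at 0.25 for TRAP over input (edgeR, adjusted p 0.166). Between genotypes, the block instead joined KO and WT libraries of the same number, which cannot be 1 animal. Their deviations in TRAP correlated at -0.046, -0.196 and -0.088. None of the 5 genes passed there, and Lhfpl4 in TRAP turned to 0.0945, so this block does not address shared animals.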
